A study of Mus musculus with 3 samples.

Results

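B cells made up 251 of the 5650 cells kept by the authors in 3 neuroblastoma tumors of TH-MYCN mice. A kept cell was called a B cell when its raw counts held at least 2 of the 7 genes Cd79a, Cd79b, Ms4a1, Pax5, Ighd, Fcmr and Bank1, including at least 1 of Cd79a, Cd79b and Ms4a1. A cell was left out when it held 2 or more of the T cell genes Cd3e, Cd3d, Cd3g and Trac, or 5 or more molecules of Jchain, the joining chain of secreted immunoglobulin. These measured values chose the members, so the genes of the rule are described here and not tested.

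The tumors came from mice heterozygous for a transgene in which the tyrosine hydroxylase promoter drives human MYCN in sympathoadrenal cells, so the B cells belong to the host. Tumor 1 was taken at 62 days of age, tumor 2 at 79 days and tumor 3 at 63 days. Each mouse gave 1 tumor and 1 library, and all 3 belong to a single group, with no untreated, healthy or wild-type control. The tumors were dissociated with enzymes and profiled with droplet-based single-cell RNA sequencing of transcript 3′ ends, without a sort for immune cells.

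B cells develop in the bone marrow, where they assemble an antibody heavy chain gene and then a kappa or lambda light chain gene. A mature naive B cell carries IgM and IgD on its surface together with the signaling pair CD79A and CD79B, presents antigen on MHC class II, and moves through lymphoid tissue under the chemokine receptors CXCR5 and CCR7. After activation it can switch its heavy chain to IgG, IgA or IgE, pass through a germinal center, or become an antibody-secreting plasma cell.

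The 3 tumors gave very unequal numbers of B cells. Tumor 1 held 223 B cells among 1914 kept cells, or 11.7% (exact 95% binomial interval 10.2 to 13.2%). Tumor 2 held 15 of 1221, or 1.23% (0.689 to 2.02%), and tumor 3 held 13 of 2515, or 0.517% (0.276 to 0.882%). The interval of tumor 1 lay far above the other two, whose intervals overlapped. With 1 library per tumor these intervals cover counting error only, and PCR and capture add error that they do not cover. The kept cells held 12628163 unique molecular identifiers (UMIs, each 1 captured transcript) in tumor 1, 2740537 in tumor 2 and 5215401 in tumor 3, and age, library and tumor cannot be told apart.

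The B cells of tumor 1 were also read more deeply. The median B cell held 4475 UMIs in tumor 1, 1559 in tumor 2 and 1440 in tumor 3. The median share of mitochondrial transcripts was 5.52%, 8.82% and 7.52%. When every kept cell was thinned to 1000 UMIs, tumor 3 kept 6 B cells, or 0.239% of its cells, and with at least 3 of the 7 genes it kept 5, or 0.199%. No member barcode was shared as a member between libraries, and 1 member barcode occurred in another library.

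The number of rule genes in a cell showed how firmly the label was met. In tumor 1, 64 members held all 7 rule genes, 80 held 6, 37 held 5, 14 held 4, 8 held 3 and 20 held 2. In tumor 2 the most was 5 genes, in 3 of the 15 members, and in tumor 3 the most was 3 genes, in 5 of the 13. Just outside the rule, 261 kept cells over the 3 tumors had 1 of the 7 genes and met its other limits. Another 10 cells were left out for T cell genes, and 16 cells, all in tumor 1, were left out for Jchain, with a median of 276 Jchain UMIs and a lowest value of 7. Among members, 8 cells held any Jchain, with at most 3 UMIs.

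By itself the rule fixes the levels of its own genes, which are given as a description. Cd79a, the alpha chain that signals for the B cell receptor, was found in 213 of 223 members in tumor 1, 13 of 15 in tumor 2 and 5 of 13 in tumor 3. Its partner Cd79b was found in 204, 7 and 9 members. Ms4a1, which encodes CD20, was found in 175, 9 and 2 members, and Pax5, the factor that holds B cell identity, in 147, 3 and 3.

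To check the label, 16 B cell genes outside the rule were counted in each cell. The median member held 9 of the 16 in tumor 1, 3 in tumor 2 and 3 in tumor 3. In tumor 1 the median was 2.0 among the 20 members with 2 rule genes, 7.0 with 3 rule genes and 8.5 with 4, and it ran from 9.0 to 10.0 with 5 to 7. The T cells, macrophages and tumor cells of tumor 1, each chosen by their own marker genes, held a median of 1. The plasmacytoid dendritic cells held 5 in tumor 1 and 1 in tumor 3. The members with only 2 rule genes in tumor 1 were thus nearer to the other classes than to the rest of the B cells, and 9 of those 20 also met the macrophage gate of 2 or more of 5 macrophage genes, among them Csf1r, Fcgr1, Adgre1 and C1qa.

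**Figure D1:**
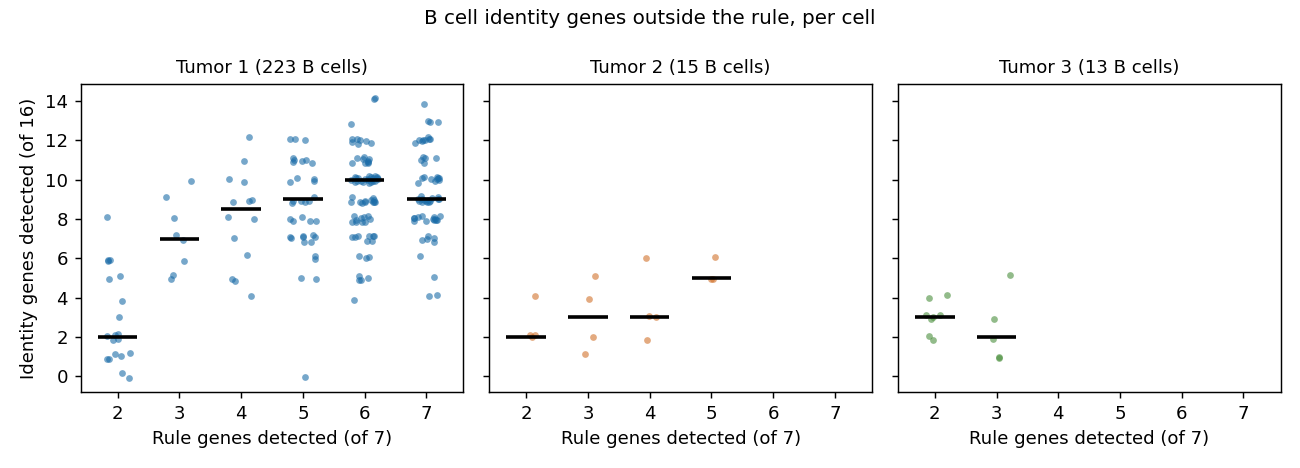
Number of the 16 B cell identity genes outside the rule that were detected per member (vertical axis), by the number of the 7 rule genes detected (horizontal axis), in tumors 1, 2 and 3. Each point is 1 B cell, jittered, and black bars are medians. In tumor 1 the median is 2.0 at 2 rule genes and between 7.0 and 10.0 at 3 or more, and no member of tumor 3 holds more than 3 rule genes.

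At equal depth the members of all tumors held B cell transcripts in a larger share of cells than tumor cells of the same libraries. After thinning to 1000 UMIs per cell, Ebf1, a transcription factor that starts the B cell program, was found in 75.5% of members in tumor 1, 12 of 15 in tumor 2 and 69.2% in tumor 3. In cells holding at least 3 of 6 neuroblast genes, among them Phox2a, Hand2, Dbh, Th and Stmn2, Ebf1 was found in 1.56%, 0.862% and 2.28%. These cells, called tumor cells here, were taken whatever their other genes. In tumor 1 the 70 of them include 3 members and 5 cells that met the macrophage gate. In tumors 2 and 3 they include 1 member each. Cd74, the invariant chain of MHC class II, was found in 95.8% of thinned members in tumor 1, all 15 in tumor 2 and 69.2% in tumor 3, against 12.5%, 2.59% and 6.08% of thinned tumor cells. Before thinning, Ebf1 was found in 208 of 223, 15 of 15 and 11 of 13 members, at median depths of 4475, 1559 and 1440 UMIs. The tumor cells had median depths of 2951, 1988.5 and 2102 UMIs.

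The defining markers were less complete in tumors 2 and 3. Summed over the 16 genes, the level was 4686, 3995 and 2761 raw CPM (the UMIs of these genes over all UMIs of the class, scaled alike in every class) in the B cells of tumors 1, 2 and 3. The same sum was 290, 472 and 534 CPM in macrophages and 501, 248 and 315 CPM in tumor cells. In tumor 3 the sum came from 9 of the 16 genes, and those at 0 included Cd22, Blk, Vpreb3, Spib, Pou2af1 and Cr2. In tumor 2, Cd22, Cd180, Spib, Fcer2a and Cr2 were at 0.

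Transcripts of other cell types were present in the members. In tumor 1, 17 of 223 members also met the macrophage gate (14 cells), the plasmacytoid dendritic gate (5 cells) or the tumor gate (3 cells), and their median depth was 13922 UMIs against 4331 in the other 206. The tumor 1 B cell counts summed to 1265724 UMIs with these 17 members and 957890 without them. Tumor 1 levels below include them unless stated. In each of the other tumors 1 member met another gate. The 8 macrophage markers summed to 13912 CPM in the tumor 1 members with 2 or 3 rule genes, 1910 CPM in those with 4 to 7, and 789 CPM in those that met no other gate. Over all members these markers summed to 4561 CPM in tumor 1, 120 CPM in tumor 2, where Csf1r, Fcgr1, Adgre1, C1qa and C1qb were among the genes at 0, and 447 CPM in tumor 3, where Csf1r, Fcgr1 and Adgre1 were among them. In macrophages they ranged from 16329 to 19857 CPM.

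A few single cells held much of the remaining foreign signal. Hbb-bs, a beta globin, was found in 222 of 223 members of tumor 1 with a median of 5 UMIs per cell, and T cells, plasmacytoid dendritic cells and macrophages of that tumor each had a median of 6. One tumor 1 member held 1988 of the 5088 Hbb-bs UMIs, or 39.1%. Likewise 1 member held 2038 of the 2061 UMIs of the neutrophil gene S100a8. The 8 neuroblast markers summed to 57.7 CPM in the members of tumor 1, 1039 CPM in tumor 2 and 1543 CPM in tumor 3, against 2342, 3046 and 3244 CPM in tumor cells and 33.1, 328 and 818 CPM in macrophages. In tumor 3 the neuroblast gene Chgb was found in 10 of 13 members, in 60.6% of macrophages and in 77.5% of tumor cells. Whether some members of tumors 2 and 3 are other cells that carry B cell transcripts was not tested, and every value given for those tumors rests on these 15 and 13 cells. The part of these transcripts in the results that follow was not tested beyond leaving out the members that met another gate.

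For the comparisons, raw counts were summed over the cells of a class in each tumor, for classes with at least 10 cells. B cells gave 3 sums, of 1265724, 25033 and 24629 UMIs, and were compared with macrophages (3 sums), T cells (tumors 1 and 2, since tumor 3 had 5 T cells) and plasmacytoid dendritic cells (tumors 1 and 3, since tumor 2 had 2 such cells). All 10 sums entered a single fit of edgeR's quasi-likelihood test, and 7665 genes were tested. The classes were drawn from the same suspensions by marker genes, and the genes of the B cell rule and of the other gates were given no test. All 3 comparisons share the B cell sums, so they are not independent of each other. Levels below are CPM after normalization by the trimmed mean of M values (normalized CPM), and adjusted p-values are Benjamini-Hochberg values over all genes tested. In the B cell sums of tumors 2 and 3, 1 UMI equals 27.0 and 28.4 normalized CPM. Values near these in those tumors rest on 1 or a few UMIs, also where a gene is called or higher in every tumor.

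Against macrophages, 49 genes were higher in B cells (0.639% of genes tested) and 7 were lower (0.0913%), 56 in all (0.731%). With the tumor as a block in the fit, which removes the level that the classes of 1 tumor share, 219 genes were higher (2.86%) and 498 lower (6.5%). Against T cells, no gene passed as higher (0%) and 1 passed as lower (0.013%), while 269 genes were higher and 153 lower with an unadjusted p below 0.05. DESeq2 called 22 higher and 9 lower, and the fit with the tumor block called 189 higher (2.47%) and 138 lower (1.8%). Against plasmacytoid dendritic cells no gene passed in either direction (0%), with 357 higher and 307 lower when p was not adjusted (below 0.05). There DESeq2 called 21 higher and 13 lower, and the block called 297 higher (3.87%) and 224 lower (2.92%). The fit without the block is the main result, and the blocked value is given wherever it changes a call.

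B cell identity genes separated the members from macrophages most clearly. Of the 16 genes, 14 were tested and 10 were higher in B cells than in macrophages, with a median log2 difference of 6.06 against −0.12 over all 7665 genes. They included Ebf1, Blk, Ly6d, Vpreb3, Fcrla, Spib, Pou2af1, Fcer2a and Ralgps2. Of those named, Blk, Vpreb3, Spib and Pou2af1 were at 0 in the B cells of tumor 3, and Spib and Fcer2a in those of tumor 2. With the block Cd37 and Cd24a passed too, at adjusted p = 8.07e-05 and 0.0395. The other 2 genes tested, Cd72 and Cd180, did not pass in either fit.

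Ebf1, on chromosome 11 (44617317 to 45008091, plus strand, GRCm38), was the most abundant of them. It stood at 2278 normalized CPM in the B cells of tumor 1, 1377 in tumor 2 and 881 in tumor 3. In macrophages it stood at 42.4, 12.0 and 2.44. The lowest B cell sum was above the highest macrophage sum, and the log2 difference was 6.14 (SE 0.97, adjusted p = 0.0104, higher in 3 of 3 tumors). T cells held 42.5 normalized CPM of Ebf1 in tumor 1 and 0 in tumor 2, and that difference of 5.61 (SE 1.18) did not pass without the block (adjusted p = 0.0843) and passed with it (adjusted p = 1.02e-11).

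Fcrla, an intracellular Fc receptor-like protein of B cells, stood at 241, 81.0 and 28.4 normalized CPM in B cells, the last on 1 UMI. Macrophages held 1.22, 0 and 0 (log2 difference 7.02, SE 0.95, adjusted p = 0.0058). Ralgps2, a guanine nucleotide exchange factor, stood at 484, 216 and 227 in B cells and 15.6, 7.97 and 19.5 in macrophages (log2 difference 4.43, SE 0.75, adjusted p = 0.0126).

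Ly6d, a surface protein that marks early commitment to the B lineage, did not set B cells apart from plasmacytoid dendritic cells. B cells held 942, 459 and 28.4 normalized CPM in tumors 1, 2 and 3. Macrophages held 2.68, 0 and 2.44 (log2 difference 7.69, SE 1.11, adjusted p = 0.00606), and plasmacytoid dendritic cells held 2048 in tumor 1 and 943 in tumor 3. In both tumors with the 2 classes the plasmacytoid dendritic cells were above the B cells, a log2 difference of −1.59 (SE 0.85, adjusted p = 0.722) without the block and −1.96 (SE 0.56, adjusted p = 0.013) with it.

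With the block, the identity list was also higher than in T cells for 11 of its 14 tested genes and than in plasmacytoid dendritic cells for 6 of them, with Ly6d lower. Vpreb3, a chain related to the surrogate light chain, had 265 UMIs in B cells and 0 in T cells and plasmacytoid dendritic cells. Against a limit of 3 counts over the group, that was at least 57.3-fold and 57.4-fold higher in CPM. Vpreb3 was at 302, 27.0 and 0 normalized CPM in the B cells of tumors 1, 2 and 3, so the ratio rests mainly on tumor 1.

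The promoters of the identity genes were searched for letters bound by B cell factors, since Ebf1 and Pou2af1, a coactivator that acts at the octamer site, were both among the genes higher than in macrophages. RefSeq windows of 300 bases (250 before and 50 after the annotated start, GRCm38.p6) were matched for 12 of the 16 genes, in 17 windows. The EBF letters, TCCC followed by any 2 bases and GGGA, read on both strands, occurred in 0.904% of all 32851 windows and in 1 of the 17. The octamer letters ATTTGCAT, read on both strands, occurred in 1.74% of all windows and also in 1 of the 17. The 2 windows are printed because they are the ones that hold a match, with the matching letters in capitals, and the search motifs do not overlap in them. Cd22, an inhibitory coreceptor, has its window at chr7:30878979-30879278 on the minus strand, and Vpreb3 has its window at chr10:75948050-75948349 on the plus strand.
Cd22: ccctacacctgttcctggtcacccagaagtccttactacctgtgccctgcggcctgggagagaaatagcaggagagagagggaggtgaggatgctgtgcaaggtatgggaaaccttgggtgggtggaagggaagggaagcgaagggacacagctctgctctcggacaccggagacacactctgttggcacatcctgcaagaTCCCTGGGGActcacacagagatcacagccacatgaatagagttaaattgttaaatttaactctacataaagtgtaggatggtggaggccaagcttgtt
Vpreb3: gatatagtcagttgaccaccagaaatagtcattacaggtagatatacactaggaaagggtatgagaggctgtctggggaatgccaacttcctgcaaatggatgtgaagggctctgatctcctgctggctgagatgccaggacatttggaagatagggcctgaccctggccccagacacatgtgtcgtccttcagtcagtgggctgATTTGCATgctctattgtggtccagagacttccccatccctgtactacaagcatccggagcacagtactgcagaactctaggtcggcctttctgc
The Cd22 match starts 49 bases before the annotated start and the Vpreb3 match 45 bases before it. A match is a description of the letters, and these data hold no binding measurement.

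Most B cells that could be assigned a light chain carried kappa. A call needed at least 3 UMIs of the light chain constant genes with at least 80% of them from Igkc or from the lambda genes Iglc1 to Iglc4. In tumor 1, 109 members were called kappa and 6 lambda, in tumor 2, 12 and 1, and in tumor 3, 3 and 0. Over the 131 calls the kappa share was 94.7% (exact 95% interval 89.3 to 97.8%), and it ran from 93.8 to 94.9% when each tumor was left out. This interval pools cells and covers counting error only, and most of the calls came from tumor 1. It also leaves out the 93 members that held both isotypes. A further 92 members of tumor 1 and 1 of tumor 2 held both isotypes below the 80% limit. Fewer than 3 UMIs were found in 13, 1 and 3 members, and none in 3, 0 and 7.

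The high count of members with both isotypes in tumor 1 came with lambda transcripts in kappa cells. A tumor 1 cell called kappa held a median of 30 kappa UMIs and 4 lambda UMIs, and 85 of the 109 held Iglc2. In tumor 2, 0 of the 12 kappa cells held Iglc2, which allows a share of up to 25%. Iglc2 was found in 1.61% of tumor 1 T cells, at a median depth of 5588.5 UMIs. Lambda cells all held Iglc1, which led in 5 of the 7 while Iglc2 led in the other two. The genes Iglc2 and Iglc3 (chromosome 16, 19198396 to 19200351 and 19065230 to 19065681, minus strand) are nearly identical, so the split of reads between them is uncertain.

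**Figure D2:**
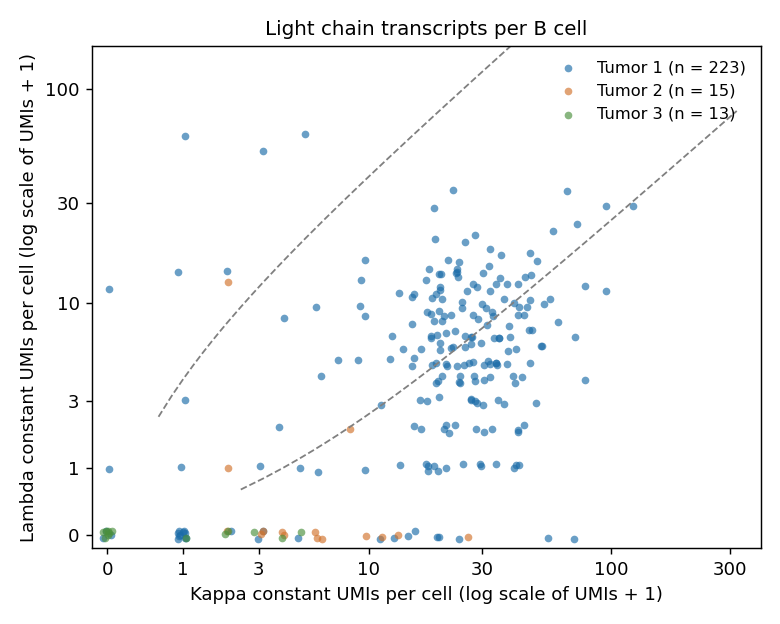
UMIs per B cell of the kappa gene Igkc and of the lambda genes, in tumors 1, 2 and 3, each point 1 member. Dashed lines mark 80% of light chain UMIs from a single isotype; in tumor 1, 109 cells lie on the kappa side, 6 on the lambda side and 92 between the lines.

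Immunoglobulin transcripts were also found outside the B cells of tumor 1. Igkc (chromosome 6, 70726435 to 70726966, plus strand) was found in 97.8% of tumor 1 members and in 44.4% of T cells, 43.9% of macrophages and 44.3% of tumor cells of that library. In tumor 2 it was found in 0 of 15 T cells and 0 of 51 macrophages, which allows up to 20% and 5.88%. The 16 Jchain-rich cells left out by the rule, all in tumor 1, held 225416 CPM of Igkc. Members stood at 6703, 2915 and 483 normalized CPM of Igkc in tumors 1, 2 and 3 against 601, 0 and 12.2 in macrophages, a log2 difference of 4.02 (SE 1.53, adjusted p = 0.341) without the block and 5.18 (SE 0.54, adjusted p = 2.1e-14) with it.

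The lambda constant genes were higher than in macrophages without the block. Iglc2 stood at 1092, 81.0 and 0 normalized CPM in the B cells of tumors 1, 2 and 3 against 1.95, 0 and 0 in macrophages. Iglc1 stood at 367, 297 and 0. The log2 difference was 8.12 for Iglc2 (SE 1.42, adjusted p = 0.0162), and it was not called by DESeq2. Iglc3 was as high in the plasmacytoid dendritic cells of tumor 1, at 550 normalized CPM and in 77.0% of those cells, as in B cells, at 512. Gm30211, a long noncoding RNA whose annotation spans Igkc on the same strand, had 194 UMIs in B cells and 0 in macrophages, at least 300.3-fold higher, and reads of the 2 genes cannot be told apart.

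The members carried the heavy chains of unswitched B cells. Ighm and Ighd transcripts, which encode IgM and IgD, were found together in 206 of 251 members. Ighm alone was found in 22 members, Ighd alone in 8 and neither in 15. Ighm was found in 211 of 223, 10 of 15 and 7 of 13 members of tumors 1, 2 and 3. Since Ighd is a rule gene, its share is set in part by the choice of cells. Ighm stood at 2368, 594 and 454 normalized CPM in B cells and 48.5, 99.7 and 129 in macrophages, with no overlap between the classes, a log2 difference of 3.67 (SE 0.96, adjusted p = 0.123) without the block and 3.19 (SE 0.50, adjusted p = 3.65e-07) with it. Ighm did not pass against plasmacytoid dendritic cells, which held 1170 and 396 normalized CPM in tumors 1 and 3 (log2 difference 0.55, SE 0.98, adjusted p = 1, and no call with the block). In tumor 1 Ighm was found in 96.6% of plasmacytoid dendritic cells, 42.7% of T cells and 94.6% of members.

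In tumor 1 the share of members with switched heavy chains was not clearly above that in other cells. The rule bears on this share, since Ighd is a rule gene and Jchain-rich cells were left out. All 16 of those cells held at least 2 switched UMIs, with 14134 UMIs of Igha and 10978 of Ighg1 among them. At least 2 UMIs of IgG, IgA or IgE genes were found in 16 members, or 6.37%, of which 12 also held Ighm. The exact 95% interval, 3.69 to 10.1%, covers counting error only. In tumor 1 the share was 6.73% of members, against 4.03% of T cells, 6.90% of plasmacytoid dendritic cells and 4.29% of tumor cells. In tumor 2 it was 0 of 15 members. In tumor 3 it was 1 of 13, against 0.304% of tumor cells and 0.962% of macrophages. A limit of 5 UMIs left 2 members, or 0.797%. One, in tumor 1, held 37 UMIs of Igha and none of Ighm or Ighd, and the other, in tumor 3, held 7 UMIs of Ighg2b and 1 of Ighg2c. Ighe was found in 0 of 251 members, which allows a share of up to 1.20% of cells with a UMI. Such a limit, here and below, says nothing of cells that express the gene at too low a level to give a UMI at these depths.

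Variable genes were read too sparsely to follow clones. In tumor 1 a heavy chain V gene was found in 43 of 223 members, a kappa V gene in 48 and a lambda V gene in 12. With at least 2 UMIs of the same gene, 7, 6 and 1 members could be assigned, each to a different gene within its family, and no member had both a heavy and a light chain assignment. The heavy chain V gene with the most UMIs was Ighv3-8, with 11 UMIs in a single cell. Next were Ighv5-9-1 with 4 UMIs in 4 cells and Ighv1-18 with 3 UMIs in 3 cells.

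Genes of B cell receptor signaling were shared in part with macrophages. Of 14 tested genes of this list, 2 were higher in B cells than in macrophages, among them the kinase Blk, and none was lower, with a median log2 difference of 0.04. With the block the adaptor Blnk passed as higher, and Lyn, a kinase, and Fcgr2b, the inhibitory Fc receptor, passed as lower. Blnk stood at 214, 27.0 and 0 normalized CPM in B cells against 13.9, 47.8 and 31.7 in macrophages, so tumors 2 and 3 were of the other sign. Syk, the kinase that binds the CD79 chains, stood at 462, 162 and 28.4 normalized CPM in B cells against 293, 247 and 229 in macrophages, so the classes overlapped (log2 difference −0.07, SE 0.69, adjusted p = 0.999).

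Against T cells the same list differed more. With the block, 11 of its 14 tested genes were higher in B cells and none lower, and without it none passed. Syk stood at 11.9 normalized CPM in the T cells of tumor 1 and 0 in tumor 2, a log2 difference of 4.57 (SE 1.10, adjusted p = 0.142) and, with the block, 4.95 (SE 0.78, adjusted p = 7.5e-07). Blnk, which links Syk to calcium signaling, had 188 UMIs in B cells and 0 in T cells, at least 40.7-fold higher. Against plasmacytoid dendritic cells 4 genes of the list passed with the block, among them Cd81, Cd72 and Dok3.

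MHC class II transcripts were abundant in the B cells but did not separate them from macrophages as a list. Of 10 genes, all tested, 3 were higher in B cells, H2-Ob, H2-Oa and H2-DMb2, none was lower, and the median log2 difference was 0.01. Of these 3, only H2-Ob was higher in every tumor. H2-DMb2 stood at 324, 0 and 0 normalized CPM in the B cells of tumors 1, 2 and 3 against 6.09, 3.99 and 2.44 in macrophages. H2-Oa stood at 181, 81.0 and 0 against 1.95, 0 and 7.31. H2-Oa and H2-Ob encode the nonclassical molecule H2-O, known in B cells as a brake on peptide loading. H2-Ob (chromosome 17, 34238903 to 34254414, plus strand) stood at 423, 108 and 114 normalized CPM in tumors 1, 2 and 3 against 3.17, 0 and 0 in macrophages. Every B cell sum was above every macrophage sum, with a log2 difference of 6.67 (SE 0.86, adjusted p = 0.00545).

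The classical genes varied more between tumors in B cells than in macrophages. The sign of the difference between these 2 classes changed with the tumor. Cd74 stood at 14399, 5452 and 710 normalized CPM in B cells and 6997, 3569 and 7669 in macrophages, above the macrophages in tumors 1 and 2 and below them in tumor 3 (log2 difference 0.18, SE 0.98, adjusted p = 0.999, and −0.42, adjusted p = 0.727, with the block). H2-Aa, an alpha chain of the antigen-presenting molecule, stood at 4043, 1107 and 540 in B cells and 2554, 1515 and 3038 in macrophages. Its difference of −0.30 (SE 0.90, adjusted p = 0.999) was smaller than its error. In the fit with the block, no gene of the list was called lower than in macrophages.

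**Figure D3:**
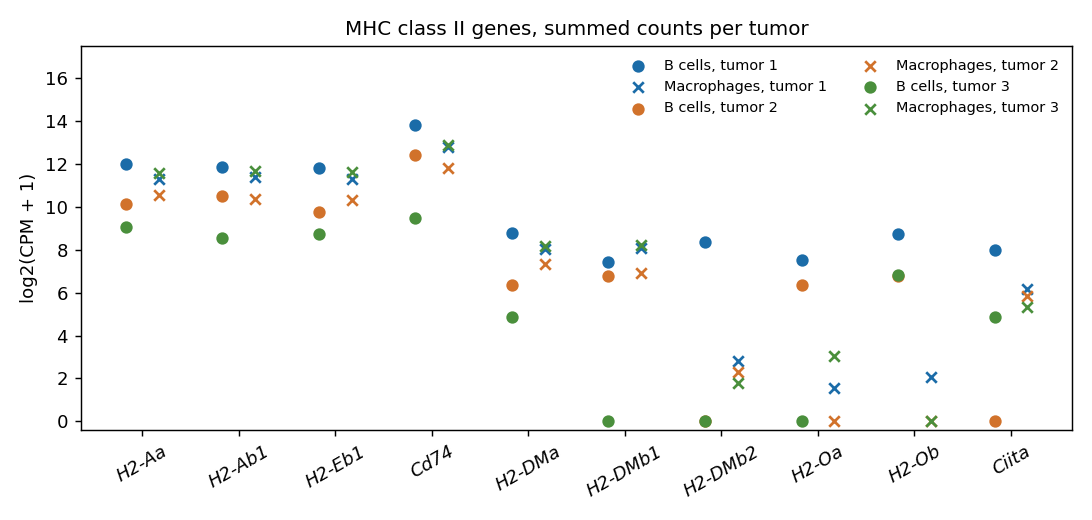
Normalized CPM of 10 MHC class II pathway genes in B cell sums (circles) and macrophage sums (crosses) of tumors 1, 2 and 3, on a log2 scale with 1 added. H2-Ob circles lie above all its crosses, while Cd74 and H2-Aa circles of tumor 3 lie below the crosses of that tumor.

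Against T cells all 10 MHC class II genes were higher with the block and none passed without it. H2-Aa stood at 349 normalized CPM in the T cells of tumor 1 and 0 in tumor 2, and the log2 difference was 3.29 (SE 1.17, adjusted p = 0.545) without the block and 3.64 (SE 0.56, adjusted p = 3.02e-07) with it. Against plasmacytoid dendritic cells, H2-Ob, H2-DMb2 and Ciita, the master regulator of the class, passed with the block. For H2-DMb2 tumor 3 was of the other sign, at 0 in B cells and 37.7 normalized CPM in plasmacytoid dendritic cells. Plasmacytoid dendritic cells held 17.8 normalized CPM of H2-Ob in tumor 1 and 0 in tumor 3, below the B cells of both tumors.

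Of 9 costimulatory and checkpoint genes 4 could be tested, and none passed against any class without the block. In tumor 1, 44 of 223 members held Cd40, 52 held Cd86, 46 held Icosl and 102 held Cd83, an activation marker. Of the 70 tumor cells of that library, at a median of 2951 UMIs against 4475, these genes were found in 0, 4, 1 and 2. Cd83 stood at 412, 108 and 28.4 normalized CPM in B cells, above T cells in both shared tumors (63.0 and 0) and above plasmacytoid dendritic cells in both (11.3 and 0), and both differences passed only with the block (adjusted p = 0.00582 and 5.38e-06). Cd69, an early activation marker that also retains cells in tissue, stood at 222, 54.0 and 56.8 in B cells and 32.1, 3.99 and 21.9 in macrophages, a log2 difference of 2.61 (SE 0.68, adjusted p = 0.122) that passed with the block (adjusted p = 0.000234).

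Among survival genes the receptor for the factor BAFF stood apart. Tnfrsf13c, which encodes it (chromosome 15, 82221743 to 82224369, minus strand), was at 358, 27.0 and 56.8 normalized CPM in tumors 1, 2 and 3. The tumor 2 value is 1 UMI. In macrophages the gene was at 0.974, 0 and 0. The log2 difference was 7.63 (SE 0.99, adjusted p = 0.00545), and it was the only 1 of 10 tested survival genes called. With the block, Mcl1 and Bcl2a1b, inhibitors of cell death, were lower than in macrophages, while Bcl2, Bcl2a1b and Bcl2a1d were higher than in plasmacytoid dendritic cells (adjusted p = 0.0107, 0.0125 and 0.000269). Mcl1 stood at 597, 162 and 0 in B cells and 972, 590 and 477 in macrophages (adjusted p = 0.755 without the block and 0.0133 with it). Tnfrsf13c was also higher than in T cells and plasmacytoid dendritic cells with the block, at adjusted p = 8.07e-07 and 7.75e-05. Tnfrsf17, the BCMA receptor of plasma cells, was found in 0 of 251 members, which allows up to 1.20% with a UMI.

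Receptors that guide B cells through lymphoid tissue were higher than in macrophages for 3 of 10 genes, Ccr7, Cxcr5 and S1pr1. Ccr7, which draws cells to the T cell zone, stood at 471, 135 and 142 normalized CPM in the B cells of tumors 1, 2 and 3 and at 8.52, 0 and 2.44 in macrophages (log2 difference 5.59, SE 0.83, adjusted p = 0.00675). T cells held 322 and 161 in tumors 1 and 2, on either side of the B cell values, and the difference of 0.12 (SE 0.75) did not pass in either fit. Plasmacytoid dendritic cells held 9.71 and 0 (adjusted p = 0.0788, and 1.8e-07 with the block).

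Cxcr5, which draws cells to follicles, was lower in level. It stood at 64.0, 81.0 and 0 normalized CPM in tumors 1, 2 and 3, and its pooled counts were 59 UMIs in B cells, 1 in macrophages and 0 in plasmacytoid dendritic cells. The ratio of CPM to macrophages was 274 with a 95% counting interval of 47.3 to 11001, and the value against plasmacytoid dendritic cells was at least 12.8-fold. S1pr1, the receptor by which lymphocytes leave tissue, stood at 241, 162 and 56.8 in B cells against 15.3, 3.99 and 19.5 in macrophages (log2 difference 3.59, SE 0.68, adjusted p = 0.0294), and T cells held 349 and 161. With the block Ccr6 and Gpr183 passed as higher than in macrophages and Itgal as lower.

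**Figure D4:**
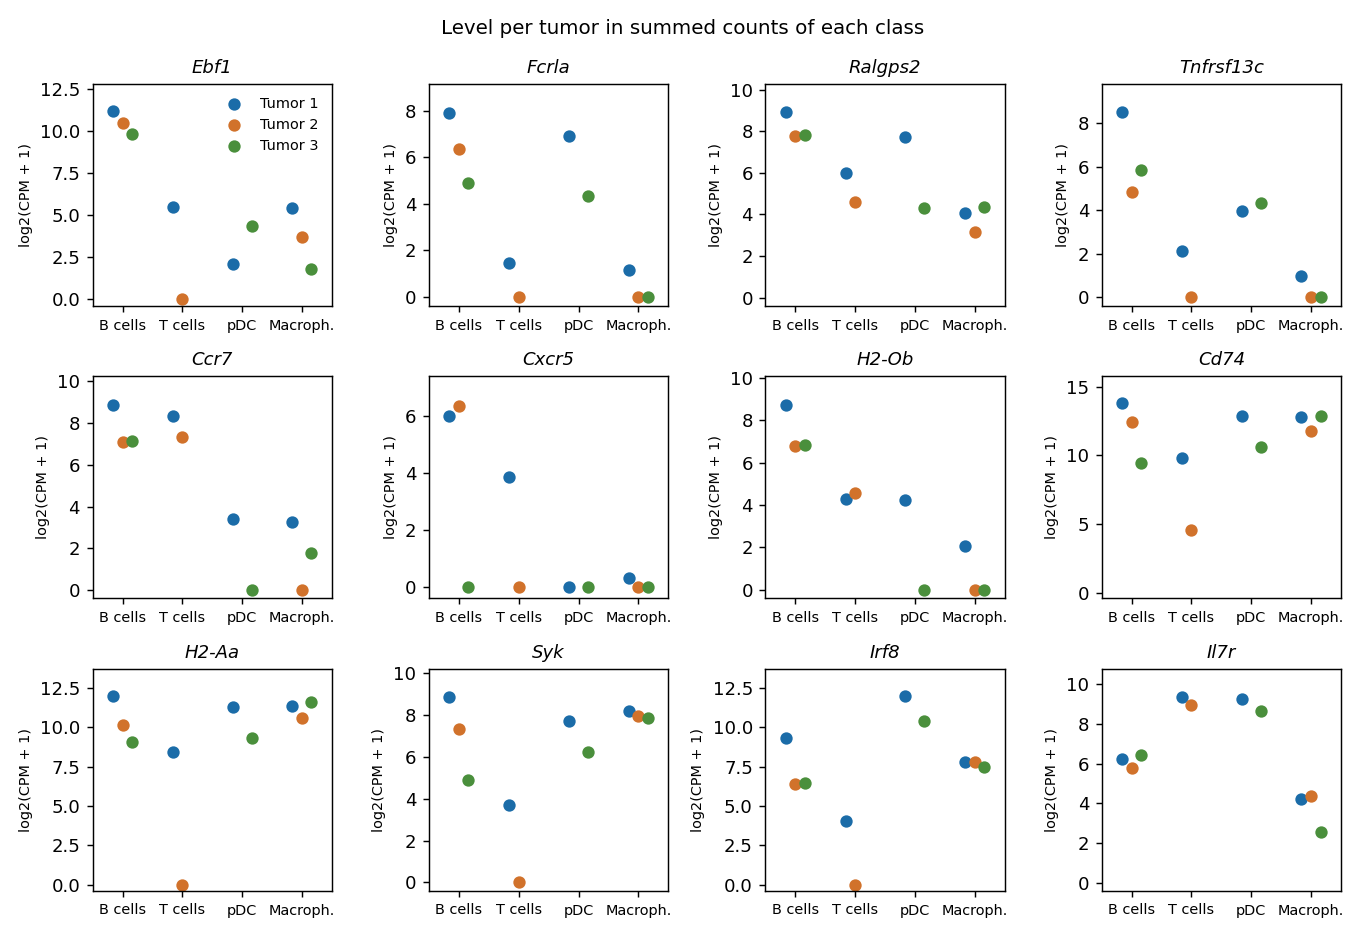
log2 of normalized CPM plus 1 of 12 genes in the sums of B cells, T cells, plasmacytoid dendritic cells and macrophages, each point 1 tumor. T cells have no sum in tumor 3 and plasmacytoid dendritic cells none in tumor 2. Ebf1, H2-Ob and Ccr7 are higher in every B cell sum than in every macrophage sum, whereas Cd74 and H2-Aa overlap and Il7r is highest in T cells and plasmacytoid dendritic cells.

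Transcription factors of the B lineage were partly shared with the other classes. Of 17 tested, 3 were higher than in macrophages (Ebf1, Spib and Pou2af1), with a median log2 difference of 1.93. Spib stood at 176, 0 and 0 normalized CPM in B cells against 1.22, 0 and 2.44 in macrophages. Pou2af1 stood at 140, 27.0 and 0 against 0.487, 0 and 0, so both calls rest mainly on tumor 1. With the block 9 factors were higher and 1, Pou2f2, lower. Mef2c, a factor in B cell receptor responses, stood at 990, 297 and 142 normalized CPM in B cells and 102, 35.9 and 85.3 in macrophages, a log2 difference of 2.72 (SE 0.74, adjusted p = 0.141) that passed with the block (adjusted p = 2.91e-05). Foxo1, which keeps naive lymphocytes resting, stood at 164, 54.0 and 28.4 against 21.9, 0 and 12.2 (adjusted p = 0.122, and 0.000471 with the block).

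Factors known for plasmacytoid dendritic cells went the other way. Irf8 stood at 622, 81.0 and 85.2 normalized CPM in B cells and at 4039 and 1357 in the plasmacytoid dendritic cells of tumors 1 and 3 (log2 difference −3.22, SE 0.83, adjusted p = 0.138, and −3.18, adjusted p = 5.71e-07, with the block). Tcf4, which sets the plasmacytoid fate, stood at 266, 459 and 227 in B cells and 2303 and 1263 in plasmacytoid dendritic cells (adjusted p = 0.154, and 6.82e-06 with the block). With the block, Bcl11a and Xbp1 were lower as well, and Ebf1, Pou2af1, Pou2f2 and Ikzf3 were higher.

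Genes of early B cells were found unevenly. Rag1 and Rag2, which cut the receptor genes, and Vpreb1 and Igll1, the surrogate light chain, were found in 0 of 251 members, which allows up to 1.20% with a UMI for each. Il7r, the receptor of a growth factor of progenitors and T cells, stood at 74.3, 54.0 and 85.2 normalized CPM in B cells, at 653 and 484 in T cells and at 597 and 396 in plasmacytoid dendritic cells. The B cell values lay below both other classes, with log2 differences of −2.99 (SE 0.65, adjusted p = 0.0911) and −2.80 (SE 0.65, adjusted p = 0.104) that passed with the block at adjusted p = 8.29e-05 and 7.53e-05. Myb and Lef1 were lower than in T cells with the block, and Dntt, Il7r and Myb lower than in plasmacytoid dendritic cells. In the other direction, the block called Il7r higher than in macrophages (adjusted p = 0.0029) and Dntt as well (adjusted p = 0.000513), on 9 UMIs in 3 members of tumor 1 against 0 in macrophages. Cd93, a marker of transitional cells, was found in 20, 1 and 0 members and was higher than in plasmacytoid dendritic cells with the block (adjusted p = 0.00457).

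Markers of mature subsets were found in part of the members of tumor 1. Fcer2a, the low-affinity IgE receptor of follicular cells, was found in 67 of 223 members there and in 0 and 2 members of tumors 2 and 3. Cr2, a complement receptor, was found in 73, 0 and 0. Of the 124 T cells of tumor 1, which were read more deeply, none held either gene. Cd1d1, which is high in marginal zone cells, was found in 12, 1 and 1 members. In tumor 1 it was found in 4 of the 70 tumor cells, which include a few members, so it was not above the share in that class. The B1 cell marker Cd5 was found in 4 members of tumor 1, and Spn, another, in 16, 0 and 1. With the block, Cd9 and Spn were lower than in macrophages and Cd5 lower than in T cells, and Dtx1, a regulator of Notch signaling, was higher than in macrophages (adjusted p = 0.000238) and plasmacytoid dendritic cells (adjusted p = 0.00397). Dtx1 stood at 51.5, 54.0 and 0 normalized CPM in B cells and 1.22, 12.0 and 14.6 in macrophages, so tumor 3 was of the other sign.

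Of the germinal center list, 2 of 7 genes could be tested and none passed in either fit. Rgs13, a regulator of G protein signaling, was found in 0 of 251 members, which allows up to 1.20% with a UMI. Bcl6, the germinal center repressor, was found in 21, 1 and 0 members, and in 2 of 70 tumor cells of tumor 1. Among memory and age-associated markers Cd80 was found in 6 and Nt5e in 3 members of tumor 1, and Tbx21 in 1, while Cd38, which is broadly expressed on mouse B cells, was found in 107, 1 and 2. Cd38 stood at 254, 54.0 and 85.2 normalized CPM in B cells and 23.8 and 0 in T cells, and it passed with the block (adjusted p = 0.000958). Zeb2, a factor linked to age-associated B cells and also used by myeloid cells, stood at 316, 81.0 and 227 in B cells, 63.0 and 23.1 in T cells and 811, 614 and 828 in macrophages. With the block it was higher than in T cells (adjusted p = 0.0143) and lower than in macrophages (adjusted p = 0.00131).

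The plasma cell genes Prdm1 and Sdc1 were scarce beside Mzb1, and the rule against Jchain bears on this. Mzb1, a chaperone of IgM assembly, was the 1 of 5 tested plasma cell genes that passed against macrophages (250, 81.0 and 0 normalized CPM against 2.68, 0 and 0, log2 difference 6.08, SE 1.03, adjusted p = 0.0126). Plasmacytoid dendritic cells held 288 and 75.4 of Mzb1. With the block Irf4 passed against macrophages too (log2 difference 4.52, SE 0.83, adjusted p = 1.61e-05). Irf4 stood at 61.7, 0 and 0 normalized CPM in B cells against 1.95, 0 and 2.44 in macrophages, so its call rests on tumor 1. Xbp1 stood at 83.5, 27.0 and 56.8 in B cells and did not pass against macrophages in either fit. Prdm1, the regulator of plasma cells, was found in 11 members of tumor 1, and Sdc1 in 4, 1 and 0. Of the 70 tumor cells of tumor 1, which include a few members, 3 held Prdm1 and 2 held Sdc1. Neither gene was thus clearly above the share in that class.

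Of 9 cytokine genes 4 could be tested, and none passed without the block. Ltb, a signal for lymphoid tissue structure, was found in 158 of 223 members of tumor 1, 0 of 15 in tumor 2 and 1 of 13 in tumor 3. It stood at 408, 0 and 28.4 normalized CPM against 47.7, 7.97 and 24.4 in macrophages, so the difference was largest in tumor 1 and of the other sign in tumor 2, and it passed with the block (adjusted p = 0.00587). Tgfb1 was found in 120, 2 and 1 members and was lower than in macrophages with the block (adjusted p = 0.0212). Il12a was found in 26 members and Il6 in 1 member of tumor 1, and Il10 in 0 of 251, which allows up to 1.20% with a UMI. Of the 70 tumor cells of tumor 1, 6 held Ltb, 6 held Tgfb1 and 0 held Il12a.

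Proliferation and immediate early genes differed between tumors and classes. The 8 proliferation genes summed to 136 CPM in the B cells of tumor 1, 1119 in tumor 2 and 1705 in tumor 3. Tumor cells of the same libraries held 1377, 1611 and 1727 CPM, and macrophages 106, 649 and 764, so B cells and macrophages ranked the tumors alike. Mki67 was found in 11, 7 and 3 members and Top2a in 25, 7 and 5. With the block, 4 of the 8 genes were lower in B cells than in T cells, Mki67 (adjusted p = 0.0336), Top2a (0.0173), Cdk1 (0.00436) and Birc5 (0.000198), and none passed without it or against the other classes. Top2a stood at 37.7 normalized CPM in B cells and 282 in T cells of tumor 1, and at 243 and 184 in tumor 2, so the tumors were of opposite sign. The same held for Mki67, at 34.3 and 206 in tumor 1 and 189 and 138 in tumor 2. In tumor 1, 3 of the 124 T cells held 86 of their 121 Mki67 UMIs, and the top 3 for Top2a held 117 of 166. In the B cells of tumor 1 the top 3 cells held 20 of 30 and 10 of 33. Fos, an immediate early gene, stood at 359, 270 and 85.2 normalized CPM in B cells and 1265, 1559 and 643 in macrophages, lower in every tumor, and with Jun, Nr4a1 and Dusp1 it passed with the block (adjusted p = 7.68e-05 for Fos, 0.144 without the block).

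Beyond the gene lists, the largest called differences from macrophages were few. Siglecg, an inhibitory receptor of B cells, stood at 289, 54.0 and 114 normalized CPM in the B cells of tumors 1, 2 and 3 and at 3.17, 0 and 0 in macrophages (log2 difference 6.21, SE 0.85, adjusted p = 0.0058). All 7 genes called lower in B cells were Cd5l, Apoe, Gpnmb, Syngr1, Ctsd, Cxcl16 and Apoc1. Apoe, the lipid carrier apolipoprotein E, stood at 467, 54.0 and 56.8 in B cells and 2972, 27692 and 10407 in macrophages, without overlap (log2 difference −5.96, SE 1.01, adjusted p = 0.0131). Ctsd, a lysosomal protease, stood at 464, 27.0 and 85.2 against 1772, 6842 and 2270 (log2 difference −4.05, SE 0.86, adjusted p = 0.0462), a call that was lost without tumor 2, without tumor 3 and at 3 or more rule genes.

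Icos was the gene called against T cells. It encodes a costimulatory receptor of T cells and stood at 1.14 and 0 normalized CPM in the B cells of tumors 1 and 2, 0 in those of tumor 3, and 199 and 161 in the T cells of tumors 1 and 2 (log2 difference −7.24, SE 0.96, adjusted p = 0.0326). The call was kept with the block, with DESeq2 and without tumor 2 or tumor 3, and without tumor 1 Icos was not tested.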

How the data were processed

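Mouse tumors were profiled with the 10x Chromium 3′ kit (v3.1). Per the submitters' processing notes, reads were processed with Cell Ranger 3.1.0 on mm10 and the cells analyzed with Seurat 3.1.5. The authors deposited, per tumor, a table of raw UMI counts over all 13622 barcodes and 31053 genes and a normalized table of the 5650 cells they kept. Before that table was made, the authors took out ambient RNA, doublets and barcodes beyond limits on coverage, genes and mitochondrial share, per a supplementary table of filters. The deposited normalized values are natural logs of corrected counts with 1 added (whole within 1e-06 once the log is undone), and served to define kept cells and in alternatives. The raw counts analyzed here still hold ambient RNA. No doublet caller was run, and members that met another cell type's gate were left out as an alternative.

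Members, gene lists, gates and tests were chosen with earlier results of these data known. Comparison classes needed at least 2 of 4 T cell genes, Siglech with another plasmacytoid dendritic gene, or at least 2 of 5 macrophage genes, and no other class. Tumor cells needed at least 3 of 6 neuroblast genes, whatever else they held, so they overlap with members and macrophages. Raw counts of each class were added up within a tumor (at least 10 cells) and tested in R 4.3.3 with edgeR 4.0.16 (filterByExpr, TMM, glmQLFit and glmQLFTest, class as the term, 6 residual degrees of freedom, threshold 0.05). DESeq2 1.42.0 was an alternative. The tumor is the replicate, with 3 sums for B cells and macrophages and 2 each for T cells and plasmacytoid dendritic cells. The fit pools its estimate of the spread over classes and draws on other genes. Very small p-values, above all with the block, thus do not rest on these tumors alone. Sums of the same tumor come from the same animal, so the fit with the tumor as a replicate block is given where it changes a call. Their deviations from the class means correlated over 7686 genes at 0.126 to 0.516 (12 pairs). Other pairs (25) ran from −0.427 to 0.297. Deviations cancel out within a class, so negative values among the other pairs are fixed in part in advance and are no independent comparison. Every listed gene could be named. Beyond the lists, up to 8 genes a direction were named, called, changed alike in every tumor, and averaging 50 CPM or more in the class where they were higher. V genes were given by family with the 3 most abundant heavy chain genes. For shares at equal depth, cells were thinned to 1000 UMIs, leaving out shallower cells. Leaving out each tumor for the kappa and switched shares was added after the data were seen. Results for some genes of the lists are not reported here. The fits were checked on simulated counts. Coordinates are from GENCODE M21 on GRCm38, and promoters from RefSeq on GRCm38.p6.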

Additional observations from a re-analysis of the deposited data

Results flagged for a closer look

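Barcodes outside the kept cells also met the B cell rule. In tumor 1, 53 of the 1343 barcodes that the authors removed did so, or 3.95% (exact 95% interval 2.97 to 5.13%), beside 223 members. Their median mitochondrial share was 28.0% against 5.52% in members, 48 of them had 20% or more, and their median depth was 872 UMIs. A light chain UMI was found in 40 of them, and the median number of identity genes was 3. In tumor 3, 7 of 3523 removed barcodes met the rule beside 13 members, with a median mitochondrial share of 20.2% and a median depth of 6286 UMIs. In tumor 2 it was 1 of 3106. These barcodes enter no comparison, and the series has no control sample to set them against.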

How the results depend on the processing

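Of 2906 values recomputed for 355 gene results, 119 changed sign, 0 of them where the gene was called in either fit, while 311 gained and 16 lost a call. With the tumor as a replicate block the counts of genes higher and lower were 189 and 138 against T cells, 297 and 224 against plasmacytoid dendritic cells and 219 and 498 against macrophages. DESeq2 gave 22 and 9, 21 and 13, and, against macrophages, 12 lower. Size factors of DESeq2 in edgeR (RLE) gave 4 and 11, 13 and 20, and, against macrophages, 11 lower. Without a filter on low counts they were 60 and 62, 104 and 96, and 190 and 91. With at least 3 of 7 rule genes, which leaves tumor 3 without a B cell sum, they were 2 higher than in T cells, 19 and 12, and 94 and 28. With members meeting no other gate they were 2 lower than in T cells, 22 and 86, and 131 and 293. Leaving out each tumor gave 0 to 32 and 0 to 33 against T cells, 0 to 37 and 0 to 17 against plasmacytoid dendritic cells, and 7 to 81 and 5 to 69 against macrophages, with 7 higher of 1040 genes tested without tumor 1. The B cell share of tumor 3 was 0.199% at 3 or more rule genes and 0.239% after thinning. The switched share was 0.797% at 5 UMIs, 3.59% on corrected counts and 3.57 to 6.78% without each tumor, and the kappa share 93.8 to 94.9%. Against macrophages, the calls of Cd5l, Gpnmb and Ralgps2 were lost without tumor 1, those of Syngr1, Ctsd, Cxcl16, Apoc1 and S1pr1 without tumor 2, and those of Syngr1, Apoc1, Vpreb3, Fcer2a and Iglc2 with DESeq2. The cause of these changes was not tested. Tumors 2 and 3 together gave 28 members of low depth. A count of 0 there cannot tell a gene that is not expressed from one too low to be read at this depth.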
